A study of Homo sapiens with 9 samples.

Results

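Interleukin-4 (IL-4) and interleukin-13 (IL-13) act through a small set of receptor chains, and the 3 genes that encode the chains binding these cytokines are described here across the MDA-MB-231 parental line and its lung and brain metastatic sub-populations. The genes are IL13RA2, IL13RA1 and IL4R, and they were found by their symbols, as 3 of 58884 genes in the deposited count table. They were chosen by the measured rise of IL13RA2 over the parental line, which was among the largest in both metastatic sub-populations, and IL13RA1 and IL4R were added as its family. The difference of IL13RA2 from the parental line is therefore given as a description, with no test.

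IL4R encodes the IL-4 receptor alpha chain, which binds IL-4 and pairs with one of 2 partners. With the common gamma chain, encoded by IL2RG, it forms the type I receptor, found mainly on blood cells, which responds to IL-4. With IL13RA1 it forms the type II receptor of epithelial and other non-blood cells, which responds to both cytokines. Janus kinases bound to these chains phosphorylate STAT6, and the SOCS proteins and several phosphatases restrain the signal. IL13RA2 binds IL-13 tightly, has a short cytoplasmic tail without the STAT6 docking sites of IL4R, and is called a decoy receptor because it holds IL-13 away from IL13RA1. It is also known as a receptor for the chitinase-like protein CHI3L1, with TMEM219 as a partner chain.

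RNA-seq was made from MDA-MB-231 (Par), a triple-negative, claudin-low breast cancer cell line, and from LM2 and BrM2, sub-populations of it that had been selected in mice for spread to the lung and to the brain. All 3 lines were grown as monolayers in the same serum-containing medium with no treatment, so the cytokines that a host tissue would supply were not added, and each sub-population is a single line. Each line had 3 biological replicates harvested at different passages, which gives 9 libraries, and p-values measure the spread between these harvests. Par libraries held between 19878879 and 23948742 counts assigned to genes, LM2 libraries between 23581487 and 24511786, and BrM2 libraries between 14371858 and 22055215. Levels are given as CPM, the count scaled to a common library size after TMM normalization, and levels of different genes are compared per kilobase of the longest coding transcript. The lines were compared with edgeR's quasi-likelihood test over the 13018 genes that passed a filter on low counts, all 3 receptor genes among them, and an adjusted p is a Benjamini-Hochberg value over these genes. IL13RA2 passed the filter through the LM2 and BrM2 libraries. Across the lines, same-numbered libraries moved together relative to the mean of their line. A second fit with the replicate number as a block, in which libraries are compared within a number, is therefore quoted where it changes a call. In that fit p-values measure only the spread left after the replicate number is taken out. The labels do not say what libraries of the same number share.

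Markers of a mesenchymal-like breast cancer line were present in all lines, beside keratins of luminal epithelium. All 6 mesenchymal and claudin-low markers passed the filter, with summed levels of 3611 to 4593 CPM in Par, 5151 to 6662 CPM in LM2 and 3991 to 5254 CPM in BrM2. Of 9 luminal epithelial markers 6 passed, with summed levels of 1075 to 2116, 615.5 to 1660 and 754.3 to 1662 CPM in the same order, and ESR1, PGR and CDH1 did not pass. Of those that passed, KRT8, KRT18 and KRT19 had means of 852.8, 432.4 and 205.9 CPM in Par, beside 724.8 CPM for VIM. GATA3 and EPCAM were lower in Par, at 12.9 and 7.17 CPM, and FOXA1 was within 3 counts per library there. The 6 blood cell markers summed to 7.98 to 17.1 CPM in Par, 4.12 to 10.3 CPM in LM2 and 2.34 to 4.87 CPM in BrM2. Of these 6, CSF1R and CD14 passed the filter, with 19 to 237 and 21 to 87 counts per library, and CD3E had at most 1 count. The part of these marker levels in the differences between lines was not tested.

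IL13RA2 (ENSG00000123496) lies on chromosome X at chrX:115003982-115017616 (GRCh38.p14). It was not detected in Par and was detected in every LM2 and BrM2 library. The count was 0 in each of the 3 Par libraries, which allows up to 3 counts per library, or 0.118 to 0.158 CPM. In LM2 the counts were 95, 338 and 346 for replicates 1, 2 and 3, or 4.72, 13.8 and 13.3 CPM. In BrM2 they were 38, 145 and 102, or 2.80, 6.40 and 4.89 CPM. Every library of both metastatic sub-populations thus lay above every Par library, which is the pattern the gene was picked for. In bulk RNA, more cells with the transcript and more RNA per cell cannot be told apart. Against the limit of 3 counts, the mean of LM2, 10.6 ± 5.10 CPM (SD, n = 3), was at least 75.5-fold higher than Par, and the mean of BrM2, 4.70 ± 1.81 CPM (SD, n = 3), at least 33.5-fold higher. Without single libraries or single replicate numbers, these bounds lay between 61.1 and 102.8 for LM2 and between 27.4 and 42.9 for BrM2. These bounds and the limit of 3 counts cover counting error only.

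IL13RA1 (ENSG00000131724) lies on the same chromosome at chrX:118727606-118805228. It was detected in all 9 libraries and was lower in BrM2 than in both other lines. Its levels were 74.2, 81.6 and 101.6 CPM in Par, 78.6, 105.6 and 103.6 CPM in LM2, and 40.0, 54.4 and 49.3 CPM in BrM2, for replicates 1, 2 and 3. The Par and LM2 libraries overlapped, and the highest BrM2 library lay below the lowest library of either. Line means were 85.8 ± 14.2, 95.9 ± 15.0 and 47.9 ± 7.28 CPM (SD, n = 3 each).

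IL4R (ENSG00000077238) lies on chromosome 16 at chr16:27313756-27364778. It was also detected in all 9 libraries, and its highest mean was in LM2. Its levels were 54.2, 41.0 and 37.7 CPM in Par, 103.5, 60.8 and 56.5 CPM in LM2, and 73.4, 52.9 and 51.2 CPM in BrM2, for replicates 1, 2 and 3. Every LM2 library lay above every Par library, and BrM2 overlapped both. Line means were 44.3 ± 8.75, 73.6 ± 26.0 and 59.1 ± 12.4 CPM (SD, n = 3 each), and the highest library of each line was replicate 1.

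**Figure D1:**
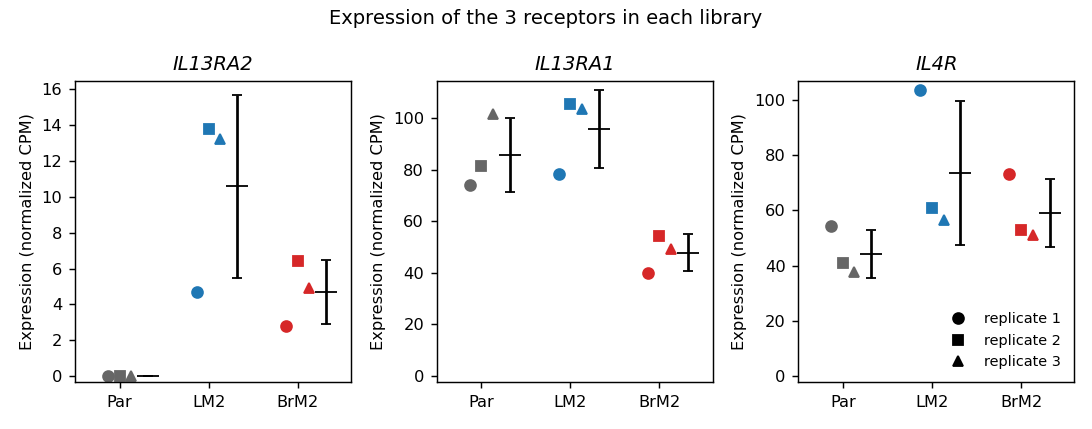
Level of IL13RA2, IL13RA1 and IL4R in each library, in CPM (y axis, one panel per gene with its own scale), by line (x axis), with symbols for the replicate number and a bar at the mean with its SD. IL13RA2 is at 0 in the 3 Par libraries, the 3 BrM2 libraries of IL13RA1 lie below all others, and replicate 1 is the highest library of each line for IL4R and the lowest for IL13RA1.

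The first comparison asked how the receptor chains of the lung metastatic sub-population differ from the parental line. IL13RA1 differed between LM2 and Par by 0.16 ± 0.21 on the log2 scale (SE), with an adjusted p of 0.79 and an interval of 2 SE from -0.26 to 0.58. The fold within each replicate number was 1.06, 1.29 and 1.02. IL4R was higher in LM2 by 0.73 ± 0.29, with an adjusted p of 0.19 in the fit without the replicate number. Within replicate numbers the LM2 to Par fold of IL4R was 1.91, 1.48 and 1.50, and with the block the difference of 0.70 ± 0.12 passed the threshold (adjusted p = 0.0013). Thus 0 of the 2 genes that the choice did not rest on passed without the block in edgeR, where 8.67% of all genes tested did, and 1 of 2 with it, where 34.5% did. At an unadjusted p under 0.05, 1 of these genes (IL4R) passed without the block in edgeR, where 20.2% of all genes did, and DESeq2 called 0, with 14.5% of all genes called. Libraries that did not overlap between the 2 lines, as for IL4R, were found for 25.1% of genes.

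The second comparison asked the same of the brain metastatic sub-population. IL13RA1 was lower in BrM2 than in Par by 0.84 ± 0.21 on the log2 scale, a fold of 0.559, and passed the threshold (adjusted p = 0.032, and 0.00028 with the block). The fold within replicate numbers was 0.540, 0.666 and 0.485. The call without the block was held when Par replicate 1 or LM2 replicate 1 was left out and was lost when any of the other 7 libraries was left out, with an adjusted p of up to 0.13. IL4R differed by 0.42 ± 0.29 with an adjusted p of 0.45. Its fold within replicate numbers was 1.35, 1.29 and 1.36, and with the block it passed (0.42 ± 0.12, adjusted p = 0.018). One of these 2 genes therefore passed without the block, against 13.2% of all genes tested, and both with it, against 42.7%. Libraries of the 2 lines did not overlap for 31.3% of genes.

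Both metastatic sub-populations were also compared with each other, a contrast whose sign the choice of IL13RA2 did not fix, although the same libraries were used in that choice. IL13RA2 was lower in BrM2 than in LM2 by 1.17 ± 0.49 on the log2 scale, and the adjusted p was 0.24. The highest BrM2 library (6.40 CPM) lay above the lowest LM2 library (4.72 CPM). BrM2 was lower within each of the 3 replicate numbers, with folds of 0.594, 0.464 and 0.369, and with the block the difference of 1.13 ± 0.20 passed (adjusted p = 0.0027). IL13RA1 was lower by 1.001 ± 0.21 and passed in both fits (adjusted p = 0.022, and 0.00013 with the block). The BrM2 to LM2 fold of IL13RA1 was 0.509, 0.515 and 0.476 within replicate numbers. The call without the block was lost when LM2 replicate 2, LM2 replicate 3, BrM2 replicate 1 or BrM2 replicate 3 was left out, with an adjusted p of up to 0.093. The difference of IL4R was -0.32 ± 0.29 and passed in neither fit (adjusted p = 0.62, and 0.086 with the block), with an interval of 2 SE from -0.89 to 0.26. Without LM2 replicate 1 its difference was 0.01. Of the 3 genes, 1 passed without the block, against 8.1% of all genes tested, and 2 with it, against 37.5%. The libraries of these 2 lines did not overlap for 23.2% of genes.

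Replicate 1 stood apart from replicates 2 and 3 in all 3 lines, and the receptor genes moved with it in different directions. Taken over the 3 lines, its log2 CPM was lower than the mean of the others by 0.83 for IL13RA2 and by 0.36 for IL13RA1, and higher by 0.59 for IL4R. IL13RA2 was at 0 in all Par libraries, so its value includes a line that could not move. Its replicate 1 was at 4.72 CPM in LM2, against 13.8 and 13.3 CPM. In BrM2 it was at 2.80 CPM, against 6.40 and 4.89 CPM. Across 12952 genes with a known transcript, this deviation rose with the GC content of the transcript (Spearman's rho 0.811, a description across genes). The GC content was 38.5% for IL13RA2, 43.1% for IL13RA1 and 57.7% for IL4R, which placed them at percentiles 10.9, 31.2 and 79.7. Without replicate 1 of all lines, IL4R was higher in LM2 than in Par by 0.58 (adjusted p = 0.0073), in a fit that called 33% of all genes, and IL13RA2 was lower in BrM2 than in LM2 with an adjusted p of 0.0048, where 32.6% of all genes were called. Without replicate 2 or without replicate 3, neither passed, with an adjusted p of 0.8 and 0.67 for IL4R and of 0.71 and 0.85 for IL13RA2.

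Per kilobase of transcript, the order of the 3 chains differed between the lines. In Par, IL13RA1 had the highest mean (20.5 ± 3.39 CPM per kb), followed by IL4R (12.2 ± 2.41) and IL13RA2 (0). In LM2, the means were 22.9 ± 3.59 for IL13RA1, 20.3 ± 7.18 for IL4R and 7.07 ± 3.40 for IL13RA2, and the first 2 did not differ beyond their spread. In BrM2, IL4R came first (16.3 ± 3.41), then IL13RA1 (11.4 ± 1.74) and IL13RA2 (3.14 ± 1.21). Among the 12952 genes with a length, IL13RA2 was at percentile 49.4 in LM2 and 31.5 in BrM2, IL13RA1 at 75.1, 77.7 and 61.9 in Par, LM2 and BrM2, and IL4R at 63.1, 75.1 and 70.1.

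The ratio of the decoy to the signalling chain for IL-13 overlapped between the metastatic sub-populations. Per length, there were 16.8, 36.5 and 35.8 units of IL13RA2 RNA for each 100 of IL13RA1 in the LM2 libraries, and 19.6, 32.9 and 27.7 in the BrM2 libraries. The BrM2 range lay inside that of LM2, and the mean difference was -2.97 (exact permutation test, 2-sided, p = 0.6). Mean levels of IL13RA2 and IL13RA1 were both lower in BrM2 than in LM2. For IL13RA2 the libraries overlapped, and edgeR without the block gave an adjusted p of 0.24. The ratio of IL13RA1 to IL4R was 1.18, 1.72 and 2.33 in Par, 0.657, 1.50 and 1.59 in LM2, and 0.472, 0.890 and 0.834 in BrM2. All 3 BrM2 libraries had more IL4R than IL13RA1 per length and all 3 Par libraries less. Exact 2-sided permutation tests of this ratio on the log2 scale gave p = 0.1 for BrM2 against Par, 0.4 for LM2 against Par and 0.3 for BrM2 against LM2, and 0.1 is the smallest p that 3 against 3 libraries can give. These tests do not pair the libraries. Within each of the 3 replicate numbers the ratio was lower in LM2 than in Par and lower in BrM2 than in LM2. These ratios are of RNA and depend on the transcript lengths used.

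**Figure D2:**
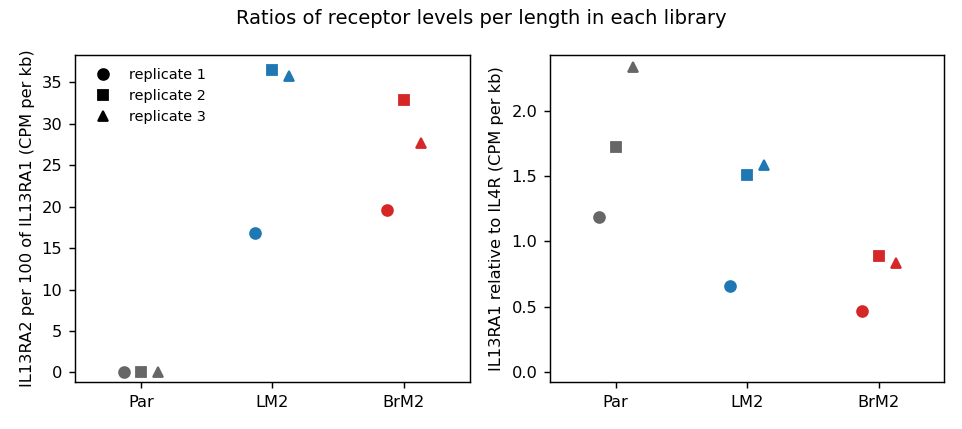
Ratios of receptor levels (y axes, from CPM per kilobase) in each library by line (x axes): IL13RA2 per 100 of IL13RA1 on the left and IL13RA1 relative to IL4R on the right. The left ratio is 0 in Par and overlaps between LM2 (16.8 to 36.5) and BrM2 (19.6 to 32.9), and the right ratio is over 1 in all Par libraries and under 1 in all BrM2 libraries.

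The ligands and the partner of the type I receptor were at or near 0. IL13 had 0 counts in all 9 libraries, and IL4 had 0 counts in 7 libraries, 2 in LM2 replicate 1 and 1 in BrM2 replicate 3, all within the limit of 3 counts. IL2RG, the common gamma chain, had 0 counts in every library, though 49.8% of its 50-base stretches also belong to an overlapping gene entry, on which reads may not have been assigned. CHI3L1, the other ligand of IL13RA2, also had 0 counts throughout. TMEM219, its partner chain, was present in all lines (51.9 ± 16.3, 50.9 ± 22.2 and 41.3 ± 12.1 CPM in Par, LM2 and BrM2, SD, n = 3 each). FAM120A, an RNA-binding scaffold protein known as a partner of IL13RA2, was at 260.8 ± 7.67, 270.0 ± 18.6 and 210.9 ± 11.2 CPM, and with the block it was lower in BrM2 than in Par (-0.31 ± 0.10, adjusted p = 0.031) and than in LM2 (-0.36 ± 0.10, adjusted p = 0.018). Without the block its adjusted p was 0.23 and 0.20. FAM120A shares exonic sequence with FAM120AOS on the opposite strand, and the strand counted is not given in the sources used here.

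Of a list of 53 genes of the IL-4 and IL-13 pathway besides the 3 receptors, 29 passed the filter and 7 had 0 counts in every library. In LM2 against Par 5 of the 29 passed the threshold (17.2%, against 8.67% of all genes), 4 higher and 1 lower. In BrM2 against Par 4 passed (13.8%, against 13.2%), 2 higher and 2 lower, and in BrM2 against LM2 4 passed, all lower (13.8%, against 8.1%). With the block the numbers were 10 (34.5%), 16 (55.2%) and 12 (41.4%), against 34.5%, 42.7% and 37.5% of all genes. The shares in LM2 against Par and BrM2 against LM2 with the block, and in BrM2 against Par without it, were near those of all genes. By direction, without the block 4.16% of all genes were higher and 4.51% lower in LM2 than in Par, 6.24% and 7% in BrM2 than in Par, and 4.09% and 4.01% in BrM2 than in LM2. With the block the list split into 6 higher and 4 lower in LM2 against Par, 11 and 5 in BrM2 against Par, and 5 and 7 in BrM2 against LM2, beside 15.5% and 19%, 19.5% and 23.2%, and 17.8% and 19.7% of all genes. The median log2 difference over the list was 0.14, 0.08 and 0.13 in the 3 comparisons, beside 0.01, -0.02 and -0.03 over all genes tested. The comparisons of LM2 and of BrM2 with Par share the Par libraries. Their counts include PTPN6, which passed the filter only through Par, where it is high.

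The Janus kinases of these receptors were present in all lines. JAK1, which binds IL4R, was at 134.9 ± 11.3, 133.6 ± 16.5 and 130.1 ± 23.6 CPM in Par, LM2 and BrM2, and its differences were between -0.05 and -0.01 on the log2 scale, with adjusted p of 0.93 to 0.99. Its exons overlap those of RAVER2 on the opposite strand. TYK2, which binds IL13RA1, was at 100.9 ± 21.8, 79.4 ± 21.1 and 104.2 ± 33.4 CPM, with adjusted p of 0.53 to 0.96. JAK2 was lower, at 4.76 to 5.84 CPM, and JAK3, which pairs with the common gamma chain, was under 1 CPM in every line and was not tested.

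STAT6, the factor that the receptors activate, had its lowest level in BrM2. Its means were 195.9 ± 30.6 CPM in Par, 211.4 ± 89.1 CPM in LM2 and 124.1 ± 27.6 CPM in BrM2. The difference of BrM2 from Par was -0.66 ± 0.30 (adjusted p = 0.22, and 0.0028 with the block) and that from LM2 -0.77 ± 0.30 (adjusted p = 0.19, and 0.0025 with the block). STAT3, STAT5A and STAT5B had block calls in the opposite direction in BrM2 against Par. That fit called 42.7% of all genes there, 19.5% higher and 23.2% lower. STAT3 was higher by 0.62 ± 0.24 (adjusted p = 0.14, and 0.0013 with the block), STAT5A by 0.49 ± 0.32 (0.43, and 0.032 with the block) and STAT5B by 0.33 ± 0.21 (0.42, and 0.047 with the block). In BrM2 against LM2, STAT3 also passed with the block (0.30 ± 0.24, adjusted p = 0.57, and 0.044 with the block). STAT6 overlaps exons of LRP1 and NAB2, and STAT5A and STAT5B overlap and resemble each other, so that these counts are uncertain.

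Among 8 adaptor and PI3-kinase genes, 7 passed the filter. IRS2, an adaptor that links IL4R to PI3-kinase, was higher in LM2 than in both other lines. Its level was 21.3 ± 1.05 CPM in Par, 35.1 ± 3.60 CPM in LM2 and 20.2 ± 1.64 CPM in BrM2. The difference of LM2 from Par was 0.72 ± 0.17 (adjusted p = 0.035) and that of BrM2 from LM2 -0.80 ± 0.17 (adjusted p = 0.024). The first call was held without LM2 replicate 1 or BrM2 replicate 1 and lost without any other library (adjusted p up to 0.15). The second was held without Par replicate 1, Par replicate 3 or LM2 replicate 1 and lost without any other (up to 0.12). With the block, both passed (0.0015 and 0.00078).

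Other adaptors passed only with the block, which called 34.5% of all genes in LM2 against Par and 42.7% in BrM2 against Par. IRS1, the related adaptor, was lower in LM2 than in Par (-0.46 ± 0.23, adjusted p = 0.32, and 0.049 with the block). PIK3R1, the regulatory subunit of PI3-kinase, was higher in LM2 (0.69 ± 0.51, adjusted p = 0.54, and 0.0092 with the block) and in BrM2 (0.83 ± 0.51, 0.38, and 0.0033 with the block). DOK1 was higher in BrM2 than in Par by 0.42 ± 0.39 (0.60, and 0.039 with the block) and GRB2 by 0.29 ± 0.26 (0.59, and 0.047 with the block). DOK1 overlaps exons of LOXL3 on the opposite strand.

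Of the tested genes upstream of the target genes, the negative regulators SOCS2 and PTPN6 had the largest log2 differences from Par. SOCS2, a feedback inhibitor of cytokine receptors, rose in both metastatic sub-populations, from 10.6 ± 2.01 CPM in Par to 33.9 ± 2.25 CPM in LM2 and 47.1 ± 1.26 CPM in BrM2. Its log2 differences from Par were 1.68 ± 0.19 (adjusted p = 0.001) and 2.15 ± 0.20 (adjusted p = 0.00024), and with the block BrM2 was also above LM2 (0.47 ± 0.19, adjusted p = 0.19, and 0.017 with the block). PTPN6, the phosphatase SHP-1, fell in both. Its counts were 79, 97 and 112 in Par, 38, 27 and 38 in LM2, and 4, 7 and 14 in BrM2, with no overlap between any of the lines. PTPN6 passed the filter only through the Par libraries, where it is high, so its tests against Par are not free of that choice. The log2 differences of PTPN6 were -1.58 ± 0.33 in LM2 (adjusted p = 0.019), -3.33 ± 0.38 in BrM2 (adjusted p = 0.00061) and -1.76 ± 0.38 between BrM2 and LM2 (adjusted p = 0.022). Its call in LM2 was lost without Par replicate 2, Par replicate 3, LM2 replicate 2 or LM2 replicate 3 (adjusted p up to 0.095), and that between BrM2 and LM2 without LM2 replicate 3, BrM2 replicate 1 or BrM2 replicate 2 (up to 0.092).

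Of 10 inhibitor genes 8 passed the filter, and the remaining tested inhibitors passed only with the block. That fit called 34.5% of all genes in LM2 against Par, 42.7% in BrM2 against Par and 37.5% in BrM2 against LM2. SOCS1 and CISH did not pass the filter and were not tested. SOCS1 had 28 to 39 counts per library in Par, 11 to 14 in LM2 and 5 to 8 in BrM2. CISH had 24 to 43 counts in Par, 8 to 13 in LM2 and 13 to 26 in BrM2. SOCS5, an inhibitor of IL-4 signalling, was higher in LM2 (0.77 ± 0.42, adjusted p = 0.37, and 0.0018 with the block) and in BrM2 (0.74 ± 0.42, 0.33, and 0.0019 with the block). PTPN2, a phosphatase of Janus kinases, was higher in BrM2 than in Par (1.05 ± 0.41, 0.15, and 4.2e-05 with the block) and than in LM2 (0.79 ± 0.41, 0.33, and 0.00038 with the block). PTPN11, the phosphatase SHP-2, was higher in BrM2 than in Par (0.77 ± 0.47, 0.38, and 0.0018 with the block). PTPN1 was lower in LM2 than in Par (-0.39 ± 0.25, 0.47, and 0.023 with the block). In BrM2 against LM2, SOCS3 was higher (0.46 ± 0.35, 0.55, and 0.028 with the block) and PIAS1 lower (-0.47 ± 0.43, 0.63, and 0.019 with the block). PTPN11, PTPN1, PIAS1, SOCS2 and CISH have expressed genes over their exons on the opposite strand.

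**Figure D3:**
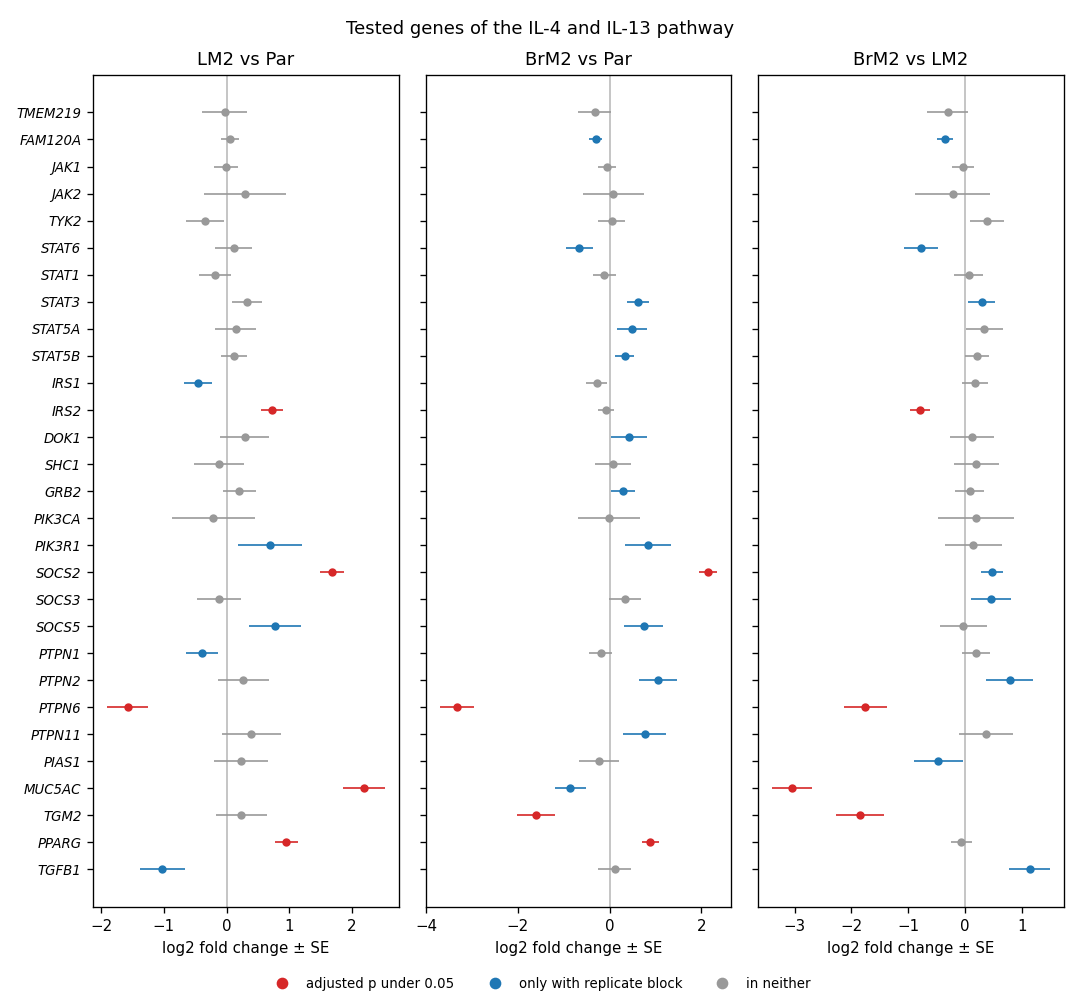
Log2 fold change (x axes, ± SE of the fit without the block) of the 29 tested genes of the IL-4 and IL-13 pathway list (y axis) in the 3 comparisons. Colours mark genes past an adjusted p of 0.05 without the block, only with it, or in neither. SOCS2 is higher in both metastatic sub-populations (1.68 and 2.15) and PTPN6, which passed the filter only through Par, lower (-1.58 and -3.33).

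Most genes known as induced by IL-4 or IL-13 were not expressed. Of 20 such genes, 4 passed the filter and 12 had at most 3 counts in every library, among them CCL11, CCL17, CCL22, POSTN, CLCA1 and ALOX15. The 4 that passed are TGM2, PPARG, MUC5AC and TGFB1, which many other signals also regulate. PPARG, a nuclear receptor of lipid metabolism, rose in both metastatic sub-populations, from 41.6 ± 3.96 CPM in Par to 80.5 ± 10.1 CPM in LM2 (0.95 ± 0.18, adjusted p = 0.013) and 76.8 ± 9.51 CPM in BrM2 (0.88 ± 0.18, adjusted p = 0.014). Its call in LM2 was lost without Par replicate 1 or 2 (adjusted p up to 0.072) and in BrM2 without Par replicate 1, Par replicate 2 or BrM2 replicate 3 (up to 0.071). MUC5AC, a secreted mucin of the airway, rose in LM2, with counts of 67, 104 and 100 in Par, 346, 431 and 580 in LM2, and 49, 35 and 38 in BrM2. All LM2 libraries lay above all others, with differences of 2.19 ± 0.34 from Par (adjusted p = 0.0041) and of -3.05 ± 0.35 for BrM2 against LM2 (adjusted p = 0.001). BrM2 was lower than Par only with the block (-0.86 ± 0.34, adjusted p = 0.15, and 0.033 with the block).

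TGM2, transglutaminase 2, was the most abundant gene of the list and fell in BrM2. It was at 2099 ± 476 CPM in Par, 2472 ± 1412 CPM in LM2 and 686.2 ± 244.2 CPM in BrM2. BrM2 differed from Par by -1.61 ± 0.41 (adjusted p = 0.033) and from LM2 by -1.85 ± 0.42 (adjusted p = 0.027). The first call was held without any single LM2 library or BrM2 replicate 1 and lost without any Par library, BrM2 replicate 2 or BrM2 replicate 3 (adjusted p up to 0.14). The second was lost without Par replicate 2, BrM2 replicate 2 or BrM2 replicate 3 (up to 0.12). TGFB1, a growth factor, was lower in LM2 than in Par with the block (-1.03 ± 0.36, adjusted p = 0.13, and 0.00032 with the block), and higher in BrM2 than in LM2 (1.14 ± 0.36, 0.10, and 0.00023 with the block). TGM2 overlaps RPRD1B and TGFB1 overlaps HNRNPUL1 on the opposite strand.

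**Figure D4:**
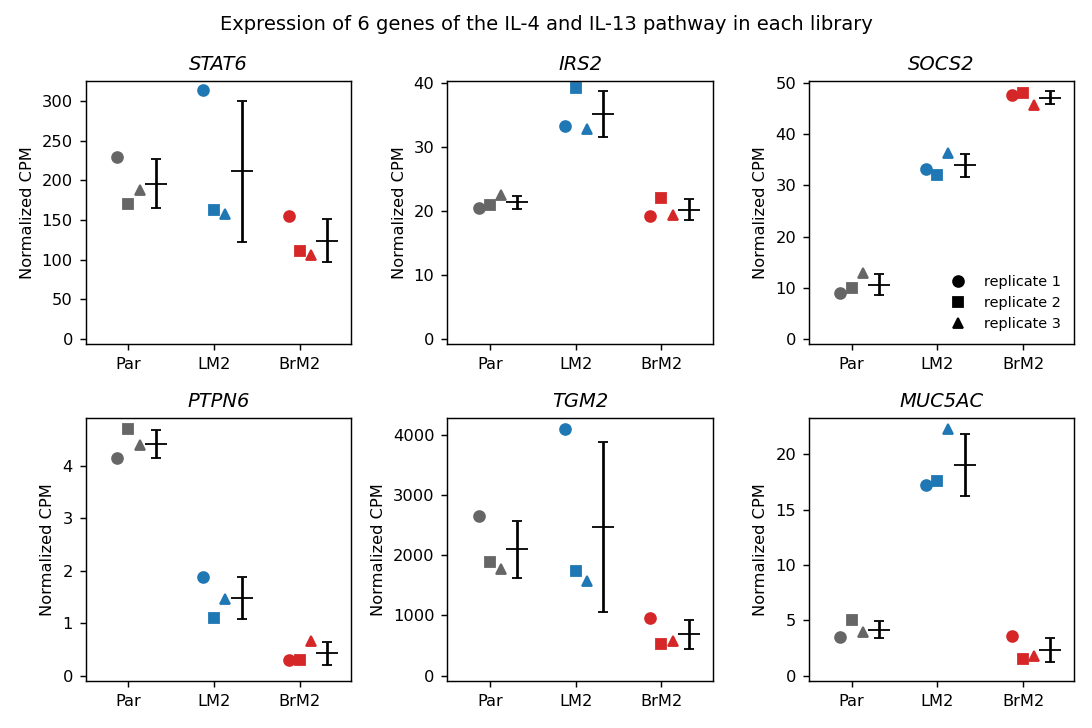
Level of STAT6, IRS2, SOCS2, PTPN6, TGM2 and MUC5AC in each library, in CPM (y axes, one panel per gene with its own scale from 0), by line (x axes), with symbols for the replicate number and a bar at the mean with its SD. STAT6 and TGM2 are highest in replicate 1 of each line, the 3 lines do not overlap for SOCS2 and PTPN6, and the LM2 libraries of IRS2 and MUC5AC lie above all others.

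The 3 receptors belong to the type I cytokine receptors, and 27 other chains of that family were followed in the same way. Of these 13 passed the filter. In LM2 against Par 5 of 13 passed the threshold (3 higher, 2 lower), in BrM2 against Par 6 (3 higher, 3 lower), and in BrM2 against LM2 1 (lower), or 38.5%, 46.2% and 7.69% beside 8.67%, 13.2% and 8.1% of all genes. The calls against Par include IL6R and CRLF2, which passed the filter only or mainly through the lines where they are high. These shares are therefore not free of that choice. With the block the counts were 9, 8 and 5, or 69.2%, 61.5% and 38.5% beside 34.5%, 42.7% and 37.5% of all genes, and the last share was near that of all genes. The median log2 difference of the 13 was -0.35, -0.30 and -0.05. Both directions were thus seen in either metastatic sub-population.

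IL6R, the binding chain for interleukin-6, had the largest rise, with counts of 2, 4 and 7 in Par, 67, 104 and 114 in LM2, and 23, 59 and 61 in BrM2. No metastatic library overlapped with Par, and the log2 differences were 4.30 ± 0.39 in LM2 (adjusted p = 0.00032) and 3.59 ± 0.39 in BrM2 (adjusted p = 0.00052). IL6R passed the filter only through LM2 and BrM2 libraries, where it is high, so its tests against Par are not free of that choice. Like IL13RA2, IL6R was lower in BrM2 than in LM2, with a difference of -0.71 ± 0.31 (adjusted p = 0.23, and 0.021 with the block). IL6ST, its signalling partner gp130, differed by between -0.11 and -0.004, with an SE of 0.70. IL7R, the interleukin-7 receptor, rose from 11.8 ± 0.394 CPM in Par to 38.6 ± 10.2 CPM in LM2 (1.71 ± 0.30, adjusted p = 0.0087) and 37.4 ± 12.3 CPM in BrM2 (1.66 ± 0.30, adjusted p = 0.0072). IL27RA, a chain of the interleukin-27 receptor, rose from 8.24 ± 1.59 CPM to 18.1 ± 6.73 CPM in LM2 (1.14 ± 0.29, adjusted p = 0.043) and 30.4 ± 3.71 CPM in BrM2 (1.89 ± 0.29, adjusted p = 0.0032). The call of IL27RA in LM2 was held without BrM2 replicate 1 and lost without any other library (adjusted p up to 0.16), and it passed with the block (0.00054).

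CSF2RA, the binding chain for the growth factor GM-CSF, fell in both metastatic sub-populations, with counts of 1048, 1104 and 1284 in Par, 433, 442 and 486 in LM2, and 111, 176 and 140 in BrM2. The lines did not overlap, and the differences were -1.45 ± 0.18 in LM2 (adjusted p = 0.0013), -2.81 ± 0.19 in BrM2 (adjusted p = 6.8e-05) and -1.36 ± 0.18 between BrM2 and LM2 (adjusted p = 0.0021). CRLF2, a receptor chain for TSLP, a cytokine of the type 2 response, fell from 5.02 ± 1.56 CPM in Par to 1.62 ± 0.713 CPM in LM2 (-1.64 ± 0.39, adjusted p = 0.033) and 0.910 ± 0.279 CPM in BrM2 (-2.47 ± 0.41, adjusted p = 0.0046). Its call in LM2 was held without LM2 replicate 1, BrM2 replicate 1 or BrM2 replicate 3 and lost without any other library (adjusted p up to 0.14). CRLF2 had 92 to 129 counts in Par, 29 to 49 in LM2 and 13 to 21 in BrM2, and passed the filter mainly through Par. CSF2RA and CRLF2 lie in the region that chromosomes X and Y share, where counting can split or drop reads. OSMR, a receptor chain for oncostatin M, fell from 198.5 ± 33.2 CPM in Par to 118.0 ± 19.0 CPM in BrM2 (-0.75 ± 0.20, adjusted p = 0.035). That call was held without LM2 replicate 1 and lost without any other library (adjusted p up to 0.14). In LM2 OSMR was at 122.4 ± 9.85 CPM (-0.70 ± 0.19, adjusted p = 0.063, and 0.00079 with the block), and RICTOR overlaps its exons on the opposite strand.

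**Figure D5:**
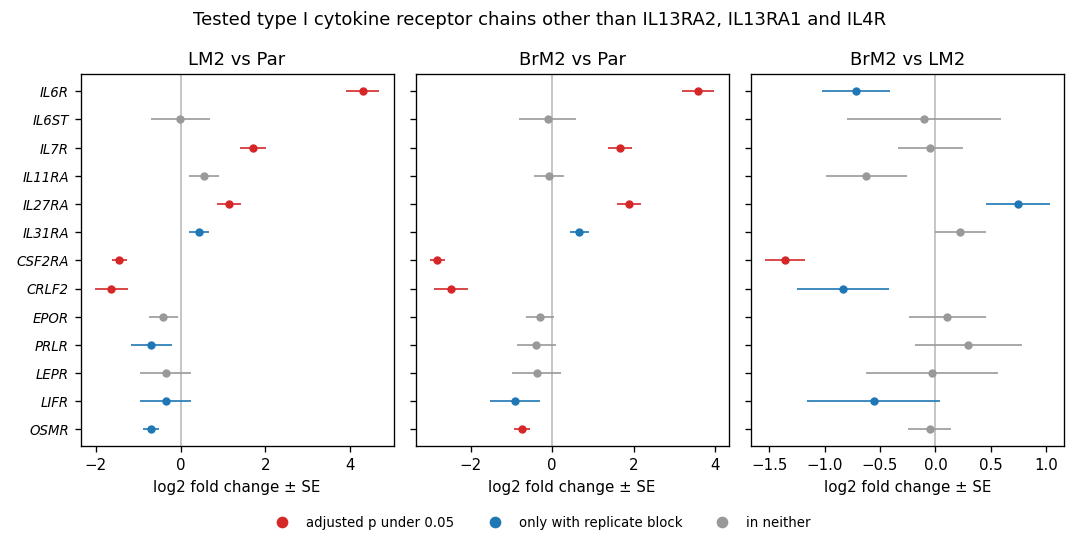
Log2 fold change (x axes, ± SE of the fit without the block) of the 13 tested type I cytokine receptor chains other than the 3 receptor genes (y axis) in the 3 comparisons, with colours for an adjusted p under 0.05 without the block, only with it, or in neither. IL6R, IL7R and IL27RA lie to the right and CSF2RA and CRLF2 to the left in both comparisons with Par.

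The genes whose log2 CPM followed that of IL13RA2 most closely over the 9 libraries were ENSG00000272622, SRGN, PIK3CG, NMNAT2 and PLCB1, with Pearson's r between 0.991 and 0.995. Spearman's rho was 0.812 for NMNAT2 and between 0.929 and 0.979 for the others. SRGN, the proteoglycan serglycin, was the most abundant, at 36.0 ± 1.83 CPM in Par, 362.3 ± 55.4 CPM in LM2 and 287.1 ± 49.3 CPM in BrM2. PIK3CG, a catalytic subunit of PI3-kinase, was at 0.124 ± 0.031, 3.79 ± 0.805 and 2.18 ± 0.373 CPM. PLCB1, a phospholipase C, was at 0.189 ± 0.090, 19.7 ± 8.04 and 14.9 ± 7.65 CPM. The other genes had counts in Par: PIK3CG had 2 to 3 per library and PLCB1 3 to 6, while IL13RA2 had 0. Those of PIK3CG are within the limit of 3 counts and cannot be told apart from the 0 of IL13RA2. For IL13RA1 the closest were ENSG00000249743 (r = 0.993), CTNNB1 (0.991), which encodes beta-catenin, and TRIM61 (0.99). CTNNB1 was at 695.1 ± 42.8, 735.2 ± 32.3 and 535.6 ± 34.4 CPM in Par, LM2 and BrM2. For IL4R they were FXYD5 (0.992), a regulator of the sodium pump, ADORA2B (0.991), an adenosine receptor, and ATRIP (0.986), a partner of the kinase ATR. FXYD5 was at 130.8 ± 48.2, 286.2 ± 171.0 and 183.7 ± 54.7 CPM. These correlations are descriptions over 9 libraries that share 3 lines and 3 replicate numbers. IL13RA2 was picked for its step from 0 in Par to both sub-populations, so its ranking mostly returns genes with that step.

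Genes near the receptors on the chromosome were looked up within 1 Mb. PLS3, which encodes an actin-bundling protein, was the only tested neighbour of IL13RA2, 557 kb away, and it was expressed in all lines, at 286.3, 394.7 and 295.2 CPM in Par, LM2 and BrM2. Its log2 difference from Par was 0.46 ± 0.37 in LM2 (adjusted p = 0.59) and 0.05 ± 0.37 in BrM2 (adjusted p = 0.97). IL13RA1 had 8 tested neighbours and IL4R 4, and their adjusted p without the block was at least 0.26 in LM2 and at least 0.11 in BrM2. With the block, SLC25A43 (-0.37 and -0.53, adjusted p = 0.043 and 0.0076) passed in both, SLC25A5 (0.73, 0.00092) and XPO6 (0.38, 0.026) in LM2, and LONRF3 (0.56, 0.0099) in BrM2. That fit called 34.5% of all genes in LM2 against Par and 42.7% in BrM2 against Par. A local change was not tested. In BrM2 against Par, SLC25A43 was the only neighbour of IL13RA1 called lower with the block, and LONRF3, at 247 kb, the only one called higher. DOCK11, the nearest (-0.29), WDR44 (-0.11) and UBE2A (-0.21) were lower without a call in either fit. PGRMC1 (0.15), SLC25A5 (0.29) and NKRF (0.22) were higher, also without a call.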

How the data were processed

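RNA-seq of 9 libraries of established cell lines was used, 3 per line. The authors sequenced stranded mRNA libraries as paired ends, aligned them to hg38 and counted reads per gene with STAR 2.7.0, and deposited these counts without normalization. CASAVA 1.8.2 and DESeq2 are also named in the submitters' processing notes. A second deposited table holds the authors' own fold changes and adjusted p-values and was not used. The strand counted is not given in the sources used here.

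Of 58887 rows, 3 repeated an identifier with identical counts and were used once, which left 58884 genes. A filter written after HTSFilter tried 100 thresholds up to 200 (loess span 0.3) and kept the 13018 genes whose largest normalized count exceeded 47.15. Lines were compared in edgeR 4.0.16 (TMM, 2-sided quasi-likelihood test, all 9 libraries, Benjamini-Hochberg, threshold 0.05), and the standard error is the log2 fold change over the root of F. CPM correlations used a prior count of 2. Alternatives were DESeq2 1.42.0, its size factors in edgeR, no filter, the replicate number as a block and fits without single libraries or replicate numbers. Deviations from the line means correlated by 0.23 to 0.90 in the 9 pairs of same-numbered libraries across lines, which is where the pairing comes from, and the common dispersion was 0.11 without the block and 0.021 with it. A fold against libraries at 0 is a bound from 3 counts per library (mean 0.14 CPM in Par), and these bounds cover counting error only. Total counts per library, given with the results, set the precision. Transcript lengths (12952 genes), GC content, shared 50-base stretches and opposite-strand genes with a mean of at least 10 counts came from reference annotation, and positions from RefSeq GRCh38.p14. The tests were tried on simulated counts with changes in LM2 only, no replicate effect and less spread than the fit without the block found. This trial therefore does not show how the fits behave on these data. The software was R 4.3.3 with limma 3.58.1, and Python 3.11.15 with pandas 2.3.3, matplotlib 3.10.9 and numpy 2.4.6.

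The receptor genes and the gene lists were chosen with earlier results of these data known. Named genes are the 3 receptors, the ligands, IL2RG, STAT6 and every pathway gene past the threshold in either fit, type I receptors past it without the block, the 5 genes most like IL13RA2 and the 3 most like each other receptor, and tested neighbours within 1 Mb. Other genes were named after their values were seen.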

Additional observations from a re-analysis of the deposited data

Results flagged for a closer look

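For 6 genes named in the report, the differences of LM2 and of BrM2 from Par were not the same by the direct edgeR test between BrM2 and LM2 (adjusted p under 0.05). The log2 difference of BrM2 from LM2 was -1.001 for IL13RA1, -0.797 for IRS2, -1.757 for PTPN6, -3.049 for MUC5AC, -1.849 for TGM2 and -1.36 for CSF2RA. All 6 were lower in BrM2. They came from the 3 receptors, 29 tested pathway genes and 13 other tested type I chains. Of all 13018 genes tested, 8.1% were called in this comparison, 4.09% higher and 4.01% lower in BrM2.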

How the results depend on the processing

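The size factors of DESeq2 in edgeR, DESeq2 itself and no filter kept the direction and the call of every comparison of the 3 receptors, except that IL13RA1 in BrM2 against Par no longer passed without the filter (-0.836, adjusted p = 0.085), where its SE was 0.289 instead of 0.213 and more genes were tested. The replicate block brought IL4R past the threshold in LM2 (0.698) and BrM2 (0.415) against Par and IL13RA2 in BrM2 against LM2 (-1.131), and changed no other call of the receptors. With the block the pathway genes called were 10, 16 and 12 in LM2 against Par, BrM2 against Par and BrM2 against LM2, all genes called 4491, 5557 and 4887, and type I receptors 9 in LM2 against Par and 5 in BrM2 against LM2 (2 without the filter). DESeq2 called 1886 genes in LM2 against Par and 1817 in BrM2 against LM2, where edgeR called 1129 and 1055, and the cause was not tested.

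Without single libraries or single replicate numbers, IL13RA1 ranged from 0.064 to 0.301 in LM2 against Par, from -0.973 to -0.672 in BrM2 against Par (called in 3 of 12 fits) and from -1.125 to -0.887 in BrM2 against LM2 (called in 6 of 12). In the same fits IL4R ranged from 0.404 to 0.903 in LM2 against Par and from 0.232 to 0.587 in BrM2 against Par, each called in 1 of 12, and from -0.501 to 0.012 in BrM2 against LM2, where the sign turned without LM2 replicate 1. IL13RA2 in BrM2 against LM2 ranged from -1.513 to -0.909 and was called in 1 of 12. The counts called, in the order of comparisons above, ranged from 0 to 12, 0 to 14 and 0 to 14 for the pathway, from 0 to 6, 1 to 8 and 0 to 3 for the type I receptors, and from 70 to 4302, 154 to 5254 and 53 to 4244 for all genes. The lowest of these counts came without replicate 2, or equally without replicate 3 for some lists, and the highest without replicate 1 of all lines. A line with fewer libraries in these fits shares the spread estimated over all lines.

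Depth limits IL13RA2 in Par to under 3 counts per library, and does not show that the gene is silent. Counts of IL13RA1 and IL4R were at least 543 per library, while IL13RA2 in BrM2 replicate 1, PTPN6 in BrM2 and IL6R in Par rest on 38 counts or fewer per library. The strand counted is unknown.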
